A study of Mus musculus with 3 samples.

Results

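Transcripts of 8 transcription factors known for building the spleen in the embryo were followed in the adult spleen after islet transplantation. They were Tlx1, Nkx2-5, Nkx3-2, Barx1, Tcf21, Wt1, Nr5a1 and Nr2f2, chosen by name, and they are 8 of the 34797 gene and transcript names on the array. Spleen RNA was hybridized to 1 array per condition. Sample 1 was taken on day 0, directly after transplantation, Sample 2 on day 2 and Sample 3 on day 139. All recipients were C57BL/6J mice by the labels, male and made diabetic with streptozotocin (STZ) by the study's methods, and each was given 25 syngeneic islets into the spleen plus 100 under the capsule of a kidney. Mice of Sample 3 had lost that kidney and its graft by nephrectomy on day 100. The capsular graft appears in the sample characteristics of Sample 3 alone, whereas the treatment protocol gives it for all 3 samples. The methods give 1 age range for all mice of the study, and neither the age at each time point nor the number of mice behind each array was given in the sources used here. A spleen that received no islets and a non-diabetic spleen were not analysed here, and so Sample 1 is the only early reference. Because each condition had 1 array, the values describe these arrays, no test between conditions was possible and no p-value is given.

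The spleen arises from mesenchyme beside the embryonic stomach and pancreas. The homeobox factor Tlx1 is required for that primordium to survive, and Nkx2-5 and Nkx3-2 act in the same mesenchyme. Barx1 patterns the neighboring stomach mesenchyme. Tcf21 is a basic helix-loop-helix factor of mesenchymal progenitors, Wt1 is a zinc finger factor of the mesothelium and of the early spleen, and Nr5a1 and Nr2f2 are nuclear receptors, of splenic vessels and steroid-producing glands and of veins and stroma, respectively.

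Each factor was read by 1 probe of 60 bases in 1 spot, so no value has a replicate spot behind it. Gene models of the build were not used here, so exon and untranslated region could not be assigned from an annotation. The probes of Nkx3-2 (mm9 chr5:42152989-42153048, minus strand), whose spot was dim, and of Tcf21 (mm9 chr10:22537563-22537622, minus strand), the member highest in Sample 3, are shown whole so that the stretch read can be seen.
Nkx3-2: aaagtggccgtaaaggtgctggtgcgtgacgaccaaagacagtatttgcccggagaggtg
Tcf21: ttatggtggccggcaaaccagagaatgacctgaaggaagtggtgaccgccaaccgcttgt
For Tlx1 (mm9 chr19:45231061-45231120, plus strand), Nkx2-5 (mm9 chr17:26975621-26975680, minus strand) and Nr5a1 (mm9 chr2:38548180-38548239, minus strand), the 2 factors at the center of the spleen program and a nuclear receptor, the last 30 bases of the probe are given. Capitals mark AATAAA or ATTAAA, the hexamers of polyadenylation signals, searched on the strand of the probe.
Tlx1: gacccttgttgtagggcatagtctggggtg
Nkx2-5: aaatgagaaccctcttcccATTAAAgtgag
Nr5a1: gccctgaAATAAAttttgcaattagtttcc
The hexamer lay 5 bases before the end of the Nkx2-5 probe and 17 bases before the end of the Nr5a1 probe. These were the 2 of the 8 probes that held one, while 13.7% of all 60-base probes on the array did. The other probes lay at mm9 chr2:105013656-105013715 (plus strand) for Wt1, chr13:48761442-48761501 (plus strand) for Barx1 and chr7:77496873-77496932 (minus strand) for Nr2f2. The longest stretch that a member's probe shared with the probe of another gene was 13 to 15 bases.

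Signals were quantile normalized over the 3 arrays. A probe counted as detected if the scanner software flagged it as well above background on 1 or more arrays, as 32108 probes were. Well above background were 54.4%, 53.8% and 50.4% of the probes in Samples 1, 2 and 3, and none was saturated. The error given with a member's signal is that of the scanner software for 1 spot, near 10% of the signal, and it covers no biological spread. The software sets a multiplicative error of 10%, so this error is largely a preset and not a scatter measured between spots. The error of a log2 ratio combines those of both spots. Probes with a signal of 300 to 2000 and 10 spots or more had a median SD of 0.06 to 0.07 on the log2 scale within an array. Each log2 ratio was scaled by the SD among the 1000 detected probes closest to it in mean signal, and the result is its Z-score. A probe was called higher at a Z-score of at least 2 with a ratio of at least 1.5, and lower at a Z-score of at most -2 with a ratio of at most 0.66. The spleen label was borne out by 10 of 10 spleen blood cell markers well above background on every array, with a summed signal of 460602 to 488341.

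Of the 8 factors, 7 were well above background on all 3 arrays and Barx1 was on none. Among the 7, only Nkx2-5 met the criteria in any comparison, as higher in Sample 2 than in Sample 1, where 1.91% of all detected probes were called higher, 2.55% lower and 4.46% either way. No member was called in Sample 3 over Sample 1 or in Sample 3 over Sample 2, where 4.72% (2.52% higher, 2.21% lower) and 4.16% (2.39% higher, 1.77% lower) of all detected probes were called. The plot of member signals by sample shows these levels with their errors.

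**Figure D1:**
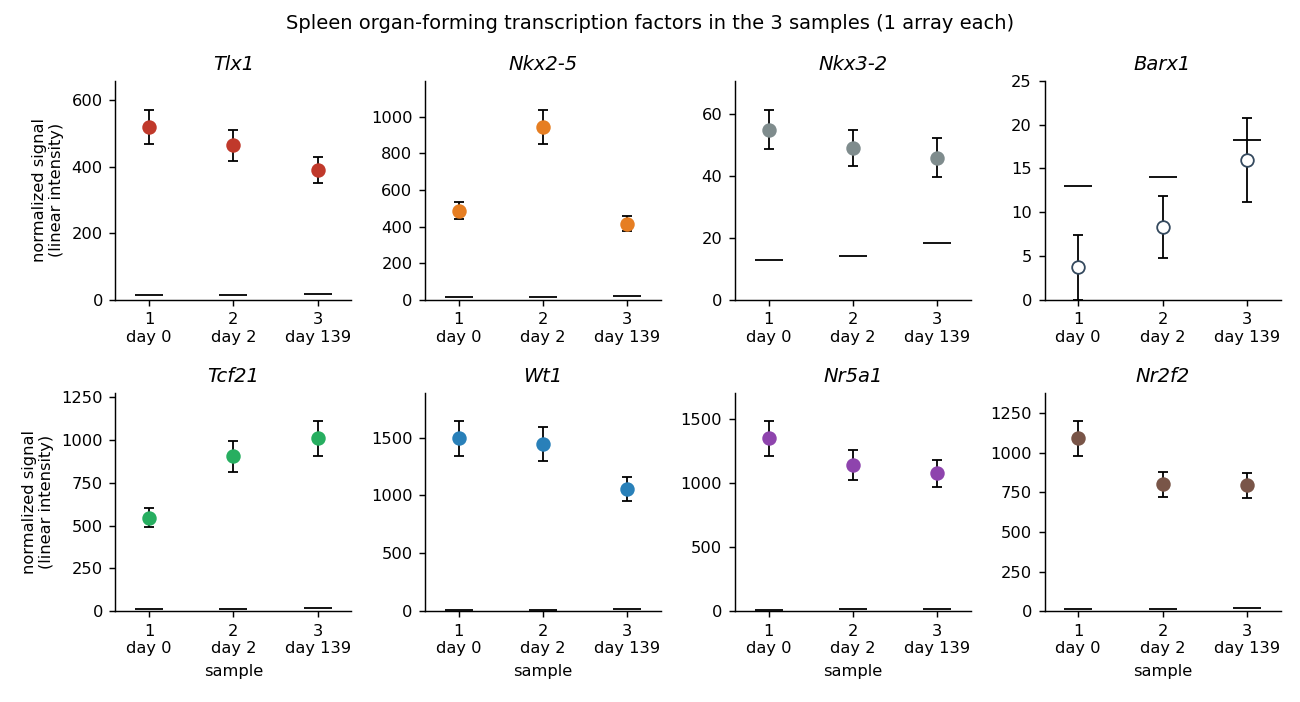
Normalized signal (linear intensity) of each factor in Samples 1, 2 and 3, with 1 array each. Bars are the scanner error of 1 spot, short horizontal lines mark the lowest signal called well above background on that array, and open points are not well above background. Nkx2-5 stood highest on day 2, Tcf21 lowest on day 0, and Barx1 stayed under the line in all 3 samples.

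Tlx1, the factor whose loss leaves mice without a spleen, had a normalized signal of 520.0 ± 52.1 on day 0, 464 ± 46.5 on day 2 and 389.8 ± 39.2 on day 139. The order ran downward from day 0 to day 139, and neighbors in that order overlapped within their scanner errors. Before normalization its spot had a mean brightness of 695, 623 and 467 against a local background of 59, 57 and 61. The ratio of Sample 3 to Sample 1 was 0.750 (log2 ratio -0.42 ± 0.20, Z-score -0.65), that of Sample 3 to Sample 2 was 0.839 (Z-score -0.39) and that of Sample 2 to Sample 1 was 0.893 (Z-score -0.29). The first of these was 2.03 times its scanner error and the others were under 2 times theirs.

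Nkx2-5, the homeobox factor of the heart that also acts in the mesenchyme of spleen and pancreas, showed the widest range of the members, except under spike-in scaling, where Tcf21 did. Its normalized signal was 488 ± 48.9 on day 0, 946 ± 94.6 on day 2 and 415 ± 41.7 on day 139. Sample 2 stood apart from both other samples, and Samples 1 and 3 overlapped within their scanner errors. Sample 2 was 1.94-fold higher than Sample 1 (log2 ratio 0.96 ± 0.20, Z-score 2.09), 4.68 times the scanner error. Sample 3 was 0.439 of Sample 2 (log2 ratio -1.19 ± 0.20, Z-score -1.98), a Z-score just short of the limit, and the lowest signal lay 2.28-fold below the highest. Sample 3 over Sample 1 was 0.851 (Z-score -0.39). The call of Sample 2 over Sample 1 was lost with a normexp background correction (Z-score 1.91), with scaling to the spike-in controls (Z-score 1.96), with 1 SD over all detected probes (Z-score 1.43) and with a ratio limit of 2. Several settings, a window of 250 probes among them (Z-score -2.11), placed Sample 3 past the limit below Sample 2.

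Because Nkx2-5 is best known from the heart, heart muscle genes were read beside it. Of 7 heart markers, 5 were detected on some array, and Myl7 and Ryr2 were not well above background on any. Their summed signal was 140.1, 189 and 308 in Samples 1, 2 and 3, so it was highest in Sample 3, whereas Nkx2-5 was highest in Sample 2. Myh6, a myosin heavy chain of the heart, was well above background in Sample 2 alone, at 21.1. Cardiac troponin T, Tnnt2, was at 36.7, 24.2 and 149.5 and was the 1 heart marker called higher in Sample 3. The part of these cells in the Nkx2-5 values was not tested.

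Nkx3-2, the homeobox factor that places the spleen away from the pancreas, was read from a dim spot, with a mean brightness of 113 to 125 over a local background of 59 to 63. Its normalized signal was 54.9 ± 6.44, 48.9 ± 5.88 and 45.9 ± 6.41 in Samples 1, 2 and 3. The lowest signal called well above background was 12.9 in Sample 1 and 18.2 in Sample 3. All 3 values overlapped within their scanner errors, and the log2 ratio of Sample 3 to Sample 1 was -0.26 ± 0.26. That difference was no larger than its error, which combines the scanner errors of both spots. On the log2 scale, probes with signals of 40 to 80 and 10 spots or more had a within-array median SD of 0.15 to 0.17.

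Barx1, the homeobox factor of stomach mesenchyme, was not well above background on any array, with a normalized signal of 3.69, 8.33 and 15.99 where the lowest signal well above background was 12.9, 14.0 and 18.2. Since all 3 values lie under those limits, they have no order and no ratio is given. Of 6 stomach epithelium markers, Gkn1, Gkn2, Tff1 and Gif were likewise not well above background on any array, and Muc5ac and Pgc reached at most 34.6. These 2 were not called in any comparison, and their summed signal ranged from 32.3 to 46.8.

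Tcf21, the factor of mesenchymal progenitors, had a normalized signal of 546 ± 54.7 on day 0, 905 ± 90.6 on day 2 and 1008 ± 101 on day 139. It was the only detected member highest in Sample 3 and lowest in Sample 1, although without normalization between arrays Sample 2 was the highest. Both later samples stood above Sample 1 beyond their scanner errors, and Samples 2 and 3 overlapped. Sample 2 was 1.66-fold higher than Sample 1 (log2 ratio 0.73 ± 0.20, Z-score 1.86) and Sample 3 was 1.85-fold higher (0.88 ± 0.20, Z-score 1.68), so both ratios passed 1.5 while neither Z-score reached 2. Sample 3 over Sample 2 was 1.11 (Z-score 0.27).

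Wt1, a factor of the mesothelium and of the early spleen, was at 1492 ± 149, 1443 ± 144 and 1057 ± 106 in Samples 1, 2 and 3. Samples 1 and 2 overlapped and Sample 3 lay below both, at 0.708 of Sample 1 (log2 ratio -0.50 ± 0.20, Z-score -0.87) and 0.733 of Sample 2 (log2 ratio -0.45 ± 0.20, Z-score -0.70). These differences were 2.44 and 2.20 times the scanner error. Of all detected probes, 30.0% and 29.7% differed by over 2 times the scanner error in these comparisons, in either direction.

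The mesothelium is the serous cell layer on the surface of the spleen, and Wt1 did not follow its other markers. Of 10 markers, which do not include Wt1, 10 were called higher in Sample 3 than in Sample 1, 7 in Sample 3 than in Sample 2 and 9 in Sample 2 than in Sample 1, the last count being 6 with normexp. Their summed signal was 380.3, 1926 and 4965, and 5, 9 and 10 of them were well above background in Samples 1, 2 and 3. The median log2 ratio was 4.57 for Sample 3 over Sample 1, or 4.05 with genes under background set at their bound and 2.00 with normexp, against a median of -0.02 over all detected probes. Mesothelin, Msln, was at 96.4, 389.7 and 2283, and the mucin Muc16 at 15.2, 52.2 and 362. The keratins Krt8 and Krt18 were highest in Sample 2 instead, Krt8 at 88.2, 454 and 272.5. The part of the mesothelium in the values of Wt1 and Tcf21 was not tested, and in bulk RNA fewer cells of a type and less RNA per cell cannot be told apart.

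**Figure D2:**
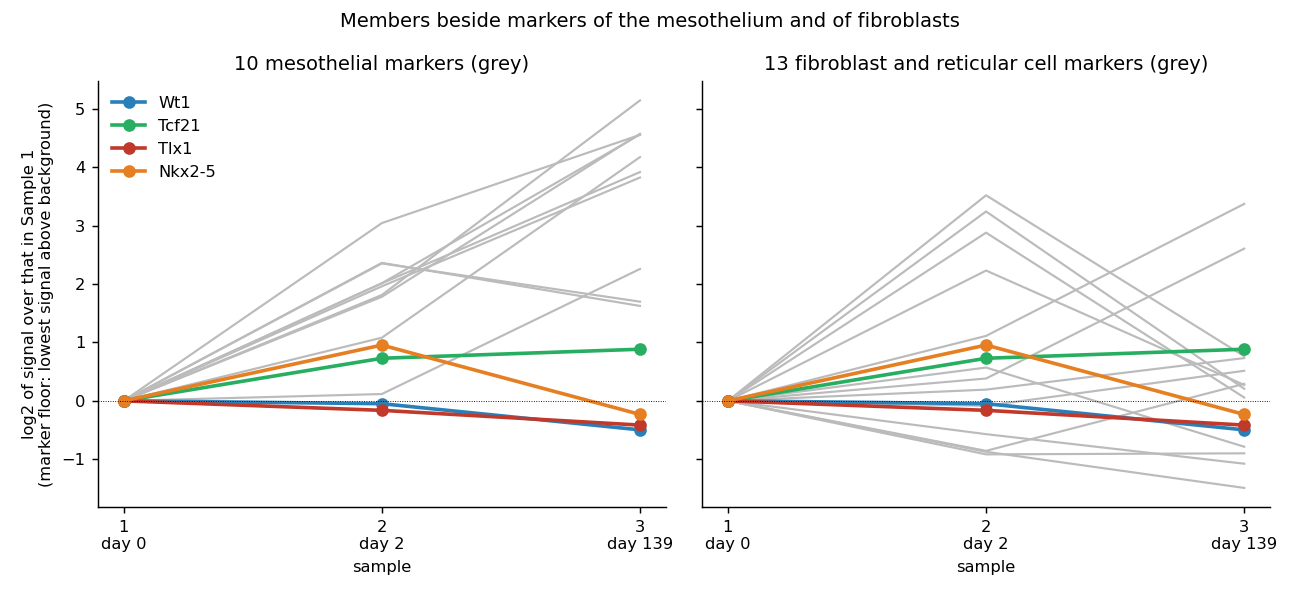
Log2 of the normalized signal over that in Sample 1 for Wt1, Tcf21, Tlx1 and Nkx2-5 (colors) and for 10 mesothelial (left) or 13 fibroblast and reticular cell markers (right, grey lines), by sample; marker signals are floored at the lowest signal well above background. All mesothelial lines end above 0 in Sample 3, at which point Wt1 and Tlx1 lie below 0, and the fibroblast markers run in both directions.

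Nr5a1, the steroidogenic factor that also serves the vessels of the spleen, was at 1351 ± 135, 1144 ± 114 and 1078 ± 108. The log2 ratios were -0.33 for Sample 3 over Sample 1, -0.08 for Sample 3 over Sample 2 and -0.24 for Sample 2 over Sample 1, each under 2 times the scanner error. Of 7 adrenal cortex markers, Cyp11a1, Cyp11b1, Hsd3b1 and Mc2r were not well above background on any array, which included the enzyme of the first step of steroid synthesis and the corticotropin receptor. Star, Cyp21a1 and Akr1b7 were detected, with a summed signal of 1753 to 2635 that was highest in Sample 3. Cyp21a1, at 411, 553 and 946, was called higher in Sample 3 than in Sample 1. That call was lost with normexp (Z-score 1.87) and without normalization between arrays. Nr5a1 was lowest in Sample 3, but highest in it under spike-in scaling (log2 ratios 0.08 to Sample 1 and 0.34 to Sample 2). Over all detected probes the medians under that scaling were 0.35 and 0.39.

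Nr2f2, the nuclear receptor that sets vein identity and is carried by stromal cells, was at 1091 ± 109, 802 ± 80.2 and 795 ± 79.6. Sample 1 lay above both others, and Samples 2 and 3 differed by a ratio of 0.992. Sample 2 over Sample 1 was 0.735 (log2 ratio -0.44 ± 0.20, Z-score -1.20) and Sample 3 over Sample 1 was 0.729 (-0.46 ± 0.20, Z-score -0.85). None of the 10 endothelial markers was called in any comparison. Their median log2 ratio for Sample 2 over Sample 1 was -0.40. It was -0.28 with genes under background set at their bound and -0.12 with normexp. For Sample 3 over Sample 1 the median was -0.12, or -0.05 with such bounds and -0.11 with normexp. Under spike-in scaling the median for Sample 3 over Sample 1 was 0.26, against 0.35 over all detected probes. The endothelial adhesion gene Cdh5 was at 1025, 687 and 681, and the sinusoidal receptor Stab2 at 6533, 7529.7 and 6109, so the endothelial markers differed in sign beside Nr2f2.

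Set side by side, 5 of the 7 detected members (Tlx1, Nkx3-2, Wt1, Nr5a1 and Nr2f2) were highest in Sample 1 and lowest in Sample 3, by 0.26 to 0.50 on the log2 scale, and this order was shared by 17.6% of the 26887 probes detected on every array. Scaling to the spike-in controls turned 7 of the 21 log2 ratios of the members to the opposite sign and left this order for Wt1 alone of the 5, and a normexp background correction put Nkx3-2 lowest in Sample 2. Sample 3 was lowest for 6 of the 7. The median range over the 3 samples was 0.44 for all probes detected on every array, so the ranges of these 5 were close to it, whereas those of Tcf21 and Nkx2-5 were 0.88 and 1.19. The median log2 ratio of the members was -0.33 for Sample 3 over Sample 1, -0.09 for Sample 3 over Sample 2 and -0.16 for Sample 2 over Sample 1, against -0.02, -0.04 and 0.01 among all that were detected. Members lower in the later sample numbered 6, 6 and 5 of 7, where 52.2%, 53.1% and 48.4% of all detected probes were lower. Differences over 2 times the scanner error were recorded for 4, 2 and 3 members, against 30.0%, 29.7% and 23.9% of all detected probes.

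**Figure D3:**
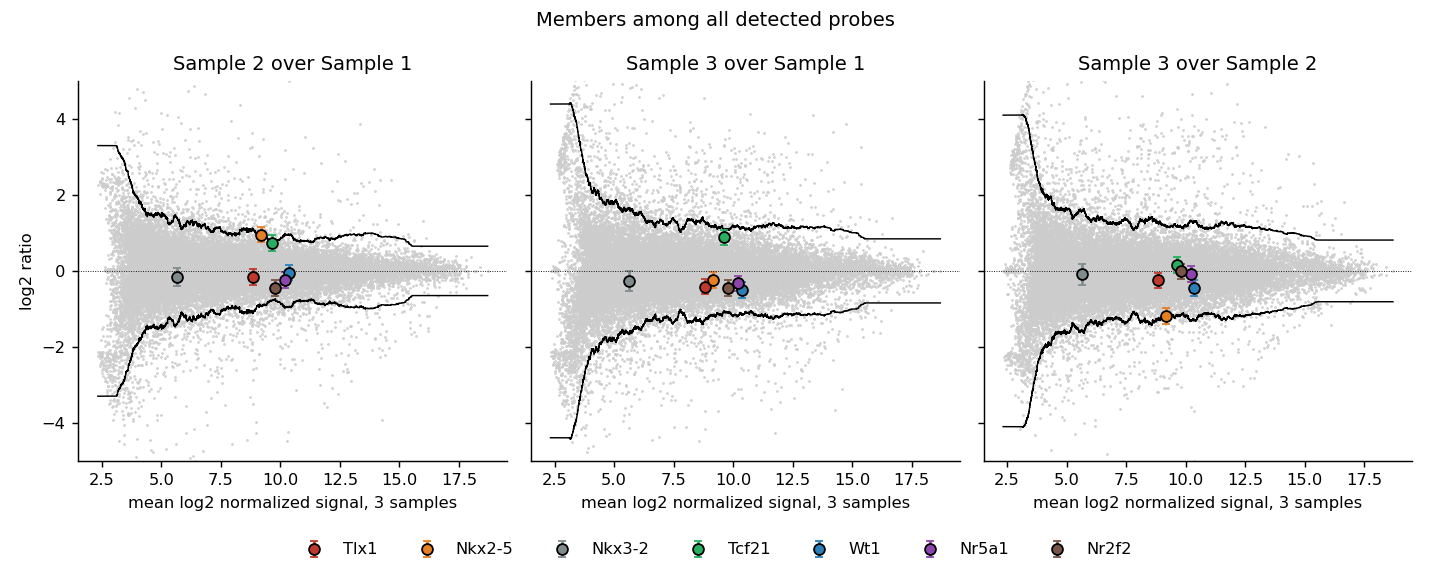
Log2 ratio of each detected probe (grey) and of the 7 detected factors (colors) against the mean log2 normalized signal over the 3 samples, for each comparison; black lines are 2 SD of the 1000 nearest probes and bars the scanner error. Nkx2-5 lies above the upper line in Sample 2 over Sample 1 and at the lower line in Sample 3 over Sample 2, and the other members lie between the lines.

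The likeness of these patterns was measured as the root mean square difference between log2 signals after the mean of each probe over the 3 samples was subtracted. The 10 pairs among Tlx1, Nkx3-2, Wt1, Nr5a1 and Nr2f2 differed by 0.03 to 0.20. The 11 pairs with Nkx2-5 or Tcf21 differed by 0.43 to 0.61, and Tlx1 and Nkx2-5 differed by 0.49. Among 17276 other probes with a gene symbol that were detected on every array, 1817 (10.5%) lay within 0.1 of Tlx1, and 41 (0.237%) lay within 0.1 of Nkx2-5. The nearest to Tlx1 were Rars, Gsta3, Eya1, Actg1 and Rps6ka3, all within 0.00735. The nearest to Nkx2-5 were Cysltr1 at 0.0045, Aifm2, Epb4.1, Snhg10 and Shisa9 at 0.043. Over 3 samples such likeness is a description, and the closest gene to Nkx2-5, the leukotriene receptor gene Cysltr1, had signals of 115, 224 and 97.6 in Samples 1, 2 and 3.

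Genes whose probes lay within 100 kb of a member's probe numbered 13 and were picked by position. Gm10824, 5.5 kb from Tcf21, did not clear background in Sample 1 and stood at 46.7 in Sample 2 and 44.8 in Sample 3, at least 3.49-fold and at least 3.35-fold above Sample 1. Kazald1, 77.4 kb from Tlx1, had a ratio of Sample 2 to Sample 1 of 1.83, where Tlx1 had 0.893. The 5 neighbors of Nkx2-5 had ratios of Sample 2 to Sample 1 of 0.842 to 1.40, all below its own 1.94.

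Partners of Tlx1 and Nkx2-5 in spleen formation numbered 13, of which 10 were detected and 3, Sox11 and Foxl1 among them, were not well above background on any array. In Sample 2 over Sample 1, 8 of the 10 were higher, with a median log2 ratio of 0.26, and none was called. In Sample 3 over Sample 2, 7 of the 10 were lower, with a median of -0.31. Under spike-in scaling 3 of the 10 were lower, with a median of 0.13 against 0.39 over all detected probes. In Sample 3 over Sample 1 the median was 0.01, or 0.39 under spike-in scaling, against 0.35 over all detected probes. Pbx3, a cofactor of homeobox factors, was at 717, 1122 and 748. The Meis factors, which are also homeobox cofactors, were likewise highest in Sample 2, Meis1 at 677, 836 and 607 and Meis2 at 208.5, 263 and 211. Nkx2-3, a homeobox factor needed for the splenic microenvironment, was at 458, 530.1 and 428. These 4 stood highest in the same sample as Nkx2-5, with ratios of Sample 2 to Sample 1 below that of Nkx2-5, and Tlx1 did not, while under spike-in scaling Meis2 and Nkx2-3 were highest in Sample 3 instead.

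The other partners differed. Gata6, a zinc finger factor of mesoderm, was lowest in Sample 2 at 201, 164 and 201, and Foxf1a, a forkhead factor of gut mesenchyme, at 143, 107.3 and 168. The basic helix-loop-helix factor Hand2 was at 34.8, 48.0 and 32.7. Cdkn2b, an inhibitor of cell cycle kinases that is repressed downstream of Nkx2-5 in the embryonic spleen, was at 36.9, 40.6 and 125. It was the 1 partner called, 3.39-fold higher in Sample 3 than in Sample 1 (Z-score 2.34) and 3.09-fold higher than in Sample 2 (Z-score 2.28), and it was not called between Samples 1 and 2. Without normalization between arrays the second of these calls was lost (Z-score 1.95).

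Of 10 family relatives of the members, 7 were detected and none was called, although Tlx2 and Msc were called higher in Sample 3 when dim values were raised to the limit of detection. The other 3, Tlx3 and Nr5a2 among them, were not well above background on any array. Tlx2 was well above background in Sample 3 alone, at 26.1, which was at least 2.02-fold above Sample 1, and Msc, a relative of Tcf21, was too, at 26.0. Barx2 was at 244, 432 and 254, highest in Sample 2. Nr2f1, the closest relative of Nr2f2, was at 432, 427 and 301, and Nr2f6 at 2545, 2796 and 2628.

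The retinoic acid pathway lies downstream of Tlx1 and Wt1 in the embryonic spleen, and Tlx1 limits it there. Of 12 genes, 10 were detected and Cyp26a1 and Crabp1 were not well above background on any array. Of these, 2 were called higher in Sample 3 than in Sample 1 and 2 than in Sample 2, where 2.52% and 2.39% of all detected probes were. Aldh1a2, the enzyme that makes retinoic acid in mesoderm, was at 88.5, 90.3 and 256, a ratio of 2.89 to Sample 1, whose call was lost without normalization between arrays (Z-score 1.98), and 2.84 to Sample 2. Stra6, the membrane receptor that takes up vitamin A, was at 24.0 in Sample 1, not well above background in Sample 2 and at 117 in Sample 3, a ratio of 4.86 to Sample 1 and at least 8.33-fold above Sample 2.

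Cyp26b1, the enzyme that degrades retinoic acid, was at 384, 719 and 255. It was called lower in Sample 3 than in Sample 2 (ratio 0.355, Z-score -2.25), a call lost under spike-in scaling (Z-score -1.58), and its ratio of Sample 2 to Sample 1 was 1.87 (Z-score 1.69), so its highest and lowest samples were those of Nkx2-5. Aldh1a1 was at 7711, 6467 and 4813, in the order of Tlx1. The receptors Rara, Rarb and Rarg were not called in any comparison, and the median log2 ratios of the list were 0.03, 0.08 and -0.13 for Sample 3 over Sample 1, Sample 3 over Sample 2 and Sample 2 over Sample 1. Aldh1a2 and Stra6 were highest in Sample 3, as most mesothelial markers were. In Sample 2, where 9 of the 10 mesothelial markers were already called higher than in Sample 1, Aldh1a2 was at 90.3 against 88.5 and Stra6 was not well above background. The part of the mesothelium in these values was not tested.

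Fibroblasts and reticular cells of the spleen carry several of these factors, and 13 of 14 of their markers were on the array, all well above background in every sample. Their summed signal was 24831, 85482 and 34541. Collagens and smooth muscle actin set the peak on day 2, with Col1a1 at 1179, 11182 and 1361 and Acta2 at 3364, 24804 and 3500.2, both called higher in Sample 2 than in Sample 1 and lower in Sample 3 than in Sample 2. Nkx2-5 was highest in that sample too, at a ratio of 1.94 against 9.49 for Col1a1. Pdgfra, the growth factor receptor of fibroblasts, was at 1189, 649 and 422.5 and Pdgfrb at 2219, 1494 and 1052, both in the order of Tlx1 and Nr5a1. Pdgfra was called lower in Sample 3 than in Sample 1 (ratio 0.355, Z-score -2.59), a call lost under spike-in scaling. Tlx1, with a ratio of 0.750, was not called. Decorin, Dcn, was at 1585, 2067 and 9669.8, highest in Sample 3 as Tcf21 was. Dcn was called higher in Sample 3 than in Sample 1 (6.10-fold) and than in Sample 2 (4.68-fold). Markers of 1 cell class thus ran in at least 3 orders, and the part of these cells in the members' values was not tested.

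Cells from outside the spleen were also read. Of 6 adipocyte markers 4 were detected, with Plin1 and Lep not well above background, and their median log2 ratio was 2.50 for Sample 3 over Sample 1, or 2.10 with genes under background set at their bound and 0.89 with normexp. Of 9 islet endocrine markers 8 were detected, with a summed signal of 63323, 100610.5 and 33265, and of 7 exocrine pancreas markers 6 were, with 91.5, 134 and 719. Well above background in Samples 1, 2 and 3 were 8, 8 and 6 of the islet markers. For the exocrine markers these counts were 2, 2 and 6, so their sums in Samples 1 and 2 include signals under background. The islet signal was highest in Sample 2 and the adipocyte and exocrine signals in Sample 3, as were those of Nkx2-5 and Tcf21, respectively, and their part was not tested.

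All 3 arrays lay on 1 slide. The 7 spike-in controls of Sample 3 had 66.0% of their signal in Sample 1, and with scaling to them the median over all detected probes went from -0.02 to 0.35 for Sample 3 over Sample 1 and from -0.04 to 0.39 for Sample 3 over Sample 2, on the log2 scale. Under this scaling the log2 ratio of Sample 3 to Sample 1 was -0.02 for Tlx1, 0.15 for Nkx2-5 and 1.27 for Tcf21, each of which is read against 0.35. Sample 2 over Sample 1 hardly moved, with Nkx2-5 at 0.90 and Tcf21 at 0.68.

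**Figure D4:**
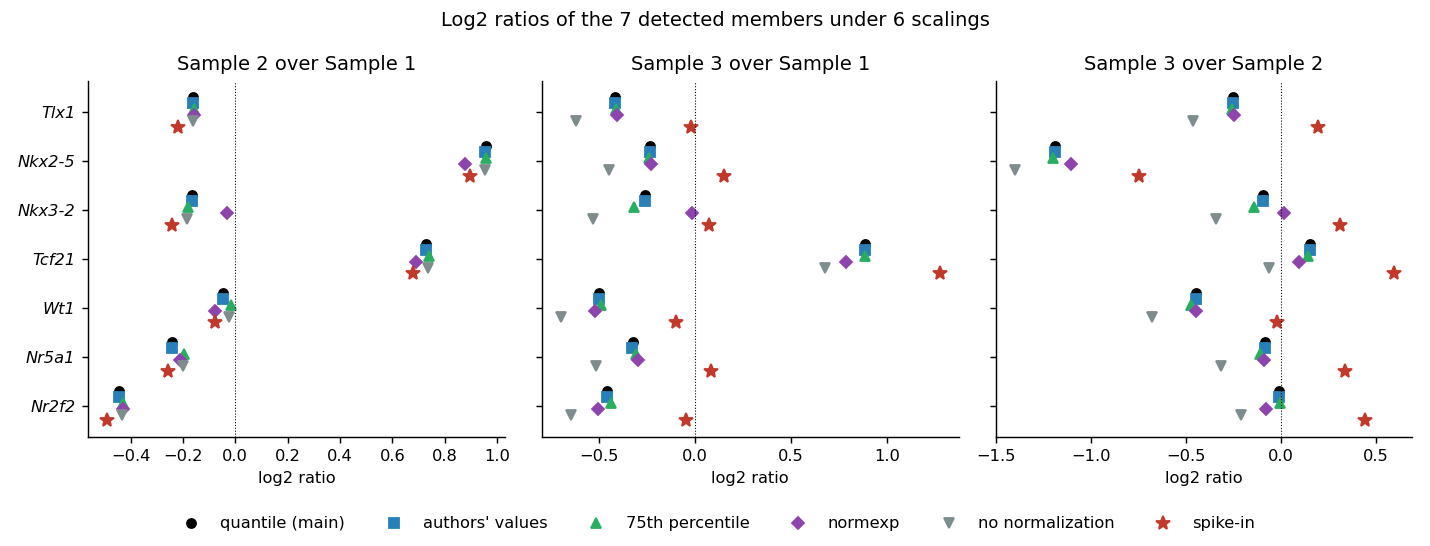
Log2 ratios of the 7 detected factors in each comparison under 6 ways of bringing the arrays to 1 scale. The symbols lie close together in Sample 2 over Sample 1, while scaling to the spike-in controls (red stars) sets every member higher in both comparisons with Sample 3.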

How the data were processed

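Spleen RNA of 3 samples was measured on 1-color arrays of 8 on a slide. For every array the authors deposited a scanner file of linear spot intensity, background-subtracted by the software and not yet normalized between arrays. The header names Feature Extraction 10.7.1.1, and the labels name 9.5.1.1. The labels and the methods name different RNA and labeling kits. The authors also deposited processed intensity values per probe, which differed from those computed here by at most 0.0361% for the 7 detected members and served as an alternative.

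Control and outlier-flagged spots were dropped, spots of a probe averaged, and 55679 probes quantile normalized, floored at 1 and taken to log2. A gene of a list was read by its brightest detected probe. Where 1 of 2 samples was not well above background, a bound was computed against the higher of its own signal and the lowest signal well above background there. The number of arrays limits the precision, and no test between conditions was run. The limits on Z-score and ratio are those of the study's methods, which give no formula for the Z-score there, so the SD over the nearest probes and the detection filter were chosen here.

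The genes named are the members, the genes of the fixed pathway and cell marker lists, the 5 genes most like Tlx1 and Nkx2-5 in pattern, and neighbors of the members picked by position. Members and lists were chosen with earlier results of these data known, and the lists were written from general knowledge. A few genes of the lists count in them and are not reported here by name. Symbols are those of the array, and all 8 members were found in RefSeq's GRCm38.p6 table.

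Alternatives were normexp (offset 50, limma 3.58.1, R 4.3.3), the authors' values, scaling to spike-in controls or to each array's 75th percentile, other floors, detection filters, outlier handling, Z-score spreads and ratio limits. The code that makes the calls was checked on simulated data. Python 3.11.15, numpy 2.4.6 and pandas 2.3.3 were used.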

Additional observations from a re-analysis of the deposited data

How the results depend on the processing

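Under other background corrections, scalings, floors and outlier rules, 147 log2 ratios of the members were recomputed. Of these, 124 stayed within the scanner error of the value given above. Those with a raised floor, the authors' values or outlier-flagged spots kept could hardly move. The 7 detected members lay above the floor, had no outlier-flagged spot and differed by at most 0.0361% from the authors' values. The remaining 23 of the 147 moved further, 14 under spike-in scaling and 9 without normalization between arrays. Across the 147, 9 changed sign, none of them called. Those were Nkx2-5 (0.15), Nkx3-2 (0.07) and Nr5a1 (0.08) in Sample 3 over Sample 1, Tlx1 (0.19), Nkx3-2 (0.31), Nr5a1 (0.34) and Nr2f2 (0.44) in Sample 3 over Sample 2 under spike-in scaling, Nkx3-2 (0.02) in Sample 3 over Sample 2 with normexp, and Tcf21 (-0.06) in Sample 3 over Sample 2 without normalization. In Sample 2 over Sample 1 the count of called members was 1 (Nkx2-5) and fell to 0 with normexp, spike-in scaling, 1 SD over all detected probes or a ratio limit of 2 or 0.5, and rose to 2 (with Tcf21) with a scaled median absolute deviation. In Sample 3 over Sample 1 the count was 0, and 1 (Tcf21 higher) with spike-in scaling or the scaled median absolute deviation. In Sample 3 over Sample 2 it was 0, and 1 (Nkx2-5 lower) with scaling to the 75th percentile, a window of 250 probes, the scaled median absolute deviation and, chosen after seeing the data, windows by the mean of the 2 arrays compared or no normalization. The cause of these moves was not tested. The limits themselves put Nkx2-5 at the edge, since its Z-score for Sample 3 over Sample 2 ran from -1.26 with spike-in scaling to -2.98 with the scaled median absolute deviation. Over all detected probes, spike-in scaling gave 1499 called higher and 387 lower in Sample 3 over Sample 1, in place of 808 and 709, and 1622 and 274 in Sample 3 over Sample 2, in place of 767 and 569. Raising dim values to the limit of detection gave 1238 and 609, and 1162 and 481, and no normalization gave 596 and 1066, and 611 and 954. The scaled median absolute deviation called 3437, 3002 and 2913 probes in place of 1517, 1336 and 1432, and no detection filter called 2244, 2009 and 2261. No paired analysis was possible because each group holds 1 sample. Leaving out a replicate was not possible either. Signal over background limits Nkx3-2 and Barx1 most.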
